A study of Rattus norvegicus with 6 samples.

Results

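The respiratory chain and the ATP synthase are the machinery of oxidative phosphorylation in the inner mitochondrial membrane. In rat adipose-derived stem cells they were represented by 112 of the 18166 genes that had a symbol of their own on the array. The genes were taken by symbol alone: those starting with Ndufa, Ndufb, Ndufc, Ndufs or Ndufv, the Sdh, Uqcr and Atp5 genes, the Cox genes with a digit after Cox, and Cyc1 and Cycs. They fell into 47 genes of complex I, 7 of complex II, 10 of complex III, 1 for cytochrome c, 27 of complex IV and 20 of complex V. By role, 69 encode constitutive parts of the chain (cytochrome c among them), 18 assembly factors, 7 tissue-restricted isoforms, and 1 the inhibitor of the ATP synthase. The other 17 were classed as copies or pseudogenes of such genes. Their gene structure was not checked, and more of them are annotated as protein-coding than as pseudogenes. Cox7a1 is not analysed here.

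Adipose-derived stem cells (ADSCs) are the stromal precursor cells of fat, and here they came from inguinal fat of female Wistar rats aged 2 weeks. The control group held 3 cultures in α-MEM with 10% fetal bovine serum. The induced group held 3 cultures given adipogenic medium for 7 days: 0.5 mM IBMX (a phosphodiesterase inhibitor), 1 µM dexamethasone (a glucocorticoid) and 5 µg/ml insulin in α-MEM with 20% serum. Serum thus differed together with the inducers. Time in culture is not given for the controls and may also have differed. The labels call all 6 arrays biological replicates but do not tie them to separate animals, so the p-values measure the spread between these cultures. Values are log2 signals of an Affymetrix array processed with RMA, with array medians of 5.64 to 5.73. Differences are induced minus control, 3 arrays per group, with the standard error (SE) of the limma fit. The array of induced replicate 3 stood apart, with a correlation across features of 0.968 and 0.969 with induced replicates 1 and 2, which correlated at 0.989 with each other. Results are therefore also given without it. In cultures measured in bulk, more fat cells and more RNA per fat cell cannot be told apart.

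Complex I takes electrons from NADH and complex II takes them from succinate, and both pass them to coenzyme Q. Complex III moves them on to cytochrome c, and complex IV hands them to oxygen. The protons pumped on the way drive complex V, the ATP synthase. The subunits come from nuclear genes, apart from a small set encoded in mitochondrial DNA, and the machinery is built up as preadipocytes become adipocytes. Background for their control at the gene includes the factors NRF1 and GABP (an ETS family factor), the estrogen-related receptors and the PGC-1 coactivators.

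Because the estimates of the subunit genes lay almost all in 1 direction, their promoters were read for short motifs of those factors. RefSeq promoters of build GRCr8 were found for 91 of the 112 genes. The window was the 250 bases before the annotated start, and each motif was searched on both strands with overlaps allowed. An NRF1 motif (GCGCA, then any base, then GCGC) lay in 15 of the 91 promoters (16.5%), against 10.1% of 7547 promoters of genes above the median level on the array and 4.17% of all 27457 promoters of that length. An ETS motif (CCGGAAG) lay in 25 (27.5%), against 17.4% and 7.74%. The Sp1 motif (GGGCGG) lay in 34 (37.4%), against 61.3% and 32.4%. An estrogen-related receptor motif (TNAAGGTCA) lay in 1 (1.10%), against 0.38% and 1.00%, and a YY1 motif (AAGATGGC) in 2 (2.20%), against 2.45% and 1.69%. A motif of the PPAR type (AGGNCA, then any base, then AGGNCA again, where N is any base) lay in 0 of 91, against 0.21% and 0.35%, which says only that these letters are not in these windows. A match is a description of the letters, not a measured binding site.

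Of the promoters, 6 are printed 5′ to 3′ along the gene, with the matches in capitals. Sdha (chr1:30764303-30764552 on the plus strand) and Sdhd (chr8:59850642-59850891 on the minus strand) encode complex II subunits, and Ndufv3 (chr20:9613536-9613785 on the plus strand) had the largest difference of all 112 genes. Atp5mc3 (chr3:79220665-79220914 on the minus strand) had the largest of complex V and holds the estrogen-related receptor match. Cox8b (chr1:205408274-205408523 on the minus strand) is the isoform that was high on 1 induced array. Atp5if1 (chr5:150026678-150026927 on the minus strand) encodes the inhibitor, whose difference had the opposite sign.
Sdha: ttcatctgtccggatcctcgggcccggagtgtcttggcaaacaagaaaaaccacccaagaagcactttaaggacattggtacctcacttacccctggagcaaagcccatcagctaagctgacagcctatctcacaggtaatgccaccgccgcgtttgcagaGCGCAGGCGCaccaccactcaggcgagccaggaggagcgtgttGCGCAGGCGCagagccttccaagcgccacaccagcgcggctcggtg
Sdhd: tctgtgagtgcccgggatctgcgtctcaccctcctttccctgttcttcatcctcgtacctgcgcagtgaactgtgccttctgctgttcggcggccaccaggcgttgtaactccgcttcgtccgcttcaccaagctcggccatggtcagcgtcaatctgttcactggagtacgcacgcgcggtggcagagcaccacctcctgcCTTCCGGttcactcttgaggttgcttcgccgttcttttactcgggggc
Ndufv3: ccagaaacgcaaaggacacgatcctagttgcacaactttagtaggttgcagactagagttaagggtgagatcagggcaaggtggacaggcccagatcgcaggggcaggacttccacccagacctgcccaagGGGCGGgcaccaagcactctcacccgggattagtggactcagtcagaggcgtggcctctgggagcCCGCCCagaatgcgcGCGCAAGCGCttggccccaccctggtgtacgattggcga
Atp5mc3: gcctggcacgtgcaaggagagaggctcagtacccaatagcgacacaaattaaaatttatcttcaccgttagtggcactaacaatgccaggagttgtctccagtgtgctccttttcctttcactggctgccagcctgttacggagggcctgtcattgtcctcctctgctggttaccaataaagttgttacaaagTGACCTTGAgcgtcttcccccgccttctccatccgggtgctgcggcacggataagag
Cox8b: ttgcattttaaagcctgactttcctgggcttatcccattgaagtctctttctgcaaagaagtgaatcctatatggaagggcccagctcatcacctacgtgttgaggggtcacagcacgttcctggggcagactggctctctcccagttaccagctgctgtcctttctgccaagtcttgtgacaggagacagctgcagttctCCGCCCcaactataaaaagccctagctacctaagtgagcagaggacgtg
Atp5if1: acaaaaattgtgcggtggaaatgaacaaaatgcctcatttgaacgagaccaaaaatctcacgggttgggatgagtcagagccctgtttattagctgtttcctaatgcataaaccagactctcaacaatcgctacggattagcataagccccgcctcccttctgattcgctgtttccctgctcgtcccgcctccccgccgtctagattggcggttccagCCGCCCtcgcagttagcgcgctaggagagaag
Counting the base before the start as -1, the NRF1 matches of Sdha begin at -89 and -46 and that of Ndufv3 at -39, all read as spelled. Ndufv3 also holds Sp1 matches at -119 and, on the other strand, at -54. The ETS match of Sdhd begins at -48 and the estrogen-related receptor match of Atp5mc3 at -57, both on the other strand, so they are printed as CTTCCGG and TGACCTTGA. Cox8b and Atp5if1 hold 1 Sp1 match each on the other strand, at -49 and -32. Over all 91 promoters, the median difference, induced minus control, was 0.59 with and 0.61 without an NRF1 match, 0.68 and 0.56 for ETS, and 0.54 and 0.64 for Sp1. Those splits mix roles: an NRF1 or ETS match lay in 0 of the 7 copies and 0 of the 6 tissue-restricted isoforms. Over the 61 promoters of constitutive genes the medians were 0.71 with and 0.70 without NRF1, 0.70 and 0.70 for ETS, and 0.67 and 0.70 for Sp1. These medians share the same 6 arrays and were not tested.

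Most respiratory chain genes had a higher mean signal in the induced cultures, but induced replicate 3 was far above the other induced arrays, and no single gene passed the test. The estimate was above 0 for 98 of 112 genes (87.5%), against 47.6% of all genes. Their median was 0.55 on the log2 scale, or 1.46-fold, where the median of all genes was -0.01. All 3 induced values lay above all 3 control values for 58 of the 112 (51.8%), against 12.0% of all genes. They lay below for 4, the copies Cox7cl1 and Ndufb11b and the isoforms Cox6b2 and Cox8c, against 13.4%. A difference of at least 2-fold upward was reached by 11 genes (9.82%, against 2.81% of all genes), and downward by none.

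At a limma adjusted p under 0.05 over all genes, 0 of the 112 were called in either direction, where 0.479% of all genes were called higher and 0.749% in either direction. The smallest adjusted p was 0.106, for Sdhaf1. At an unadjusted p under 0.05, 37 of the 112 were higher and 2 lower, where 8.13% of all genes were higher and 9.51% lower. Without induced replicate 3 the median was 0.24, with 92 estimates above 0. Then 2 genes were called, Ndufv3 and Sdhaf2 (1.79% of the 112, against 2.00% of all genes), which is near the background.

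**Figure D1:**
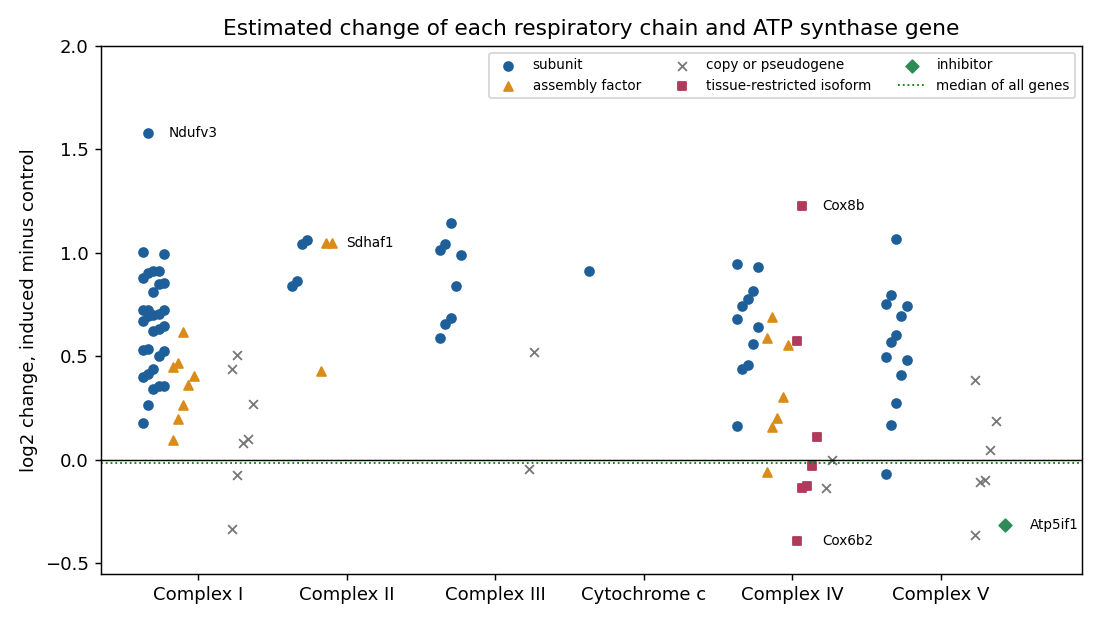
Each point is 1 gene, placed by complex (x axis) and by its log2 difference, induced minus control, from 3 arrays per group (y axis), with the role of the gene shown by shape and colour; the dotted line is the median of all genes, -0.01. Subunits lie above 0 except Atp5pd, with medians of 0.68, 0.95, 0.91, 0.68 and 0.57 in complexes I to V, while copies and pseudogenes scatter around 0.

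Complex I, the entry point for NADH, held 32 measured subunits, and all 32 had estimates above 0 (median 0.68, or 0.32 without induced replicate 3). In 21 of them (65.6%) all induced arrays lay above all controls, against 12.0% of all genes and 16.9% of genes above the median level. The same shares are the background for the counts of separate groups below. The largest difference was that of Ndufv3, an accessory subunit of the NADH-oxidising tip. Here and below, 3 values in a row follow replicates 1 to 3. Ndufv3 read 7.80, 8.06 and 7.92 in control cultures, and 8.83, 8.93 and 10.76 after induction. Every induced array was thus above every control array, and induced replicate 3 was far above the rest. Its difference was 1.58 (SE 0.50, adjusted p = 0.190). Without induced replicate 3 it was 0.95 (SE 0.13) and was called (adjusted p = 0.0176). A second feature of Ndufv3 gave 1.01.

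Of the catalytic core of complex I, which as a whole holds the flavin and the iron-sulfur clusters, 6 subunits were measured, with a median of 0.79. Ndufs3 gave 7.29, 6.92 and 7.04 in control and 7.63, 7.72 and 8.91 in induced cultures, a difference of 1.00 (SE 0.34, adjusted p = 0.214). Ndufs1, the largest iron-sulfur subunit, gave 9.15, 9.00 and 8.87 against 9.34, 9.38 and 11.01, a difference of 0.90 (SE 0.44, adjusted p = 0.352). In both genes the groups were apart and induced replicate 3 was the highest. Without that array the difference was 0.59 for Ndufs3 (SE 0.14, adjusted p = 0.091) and 0.35 for Ndufs1 (SE 0.13, adjusted p = 0.221). Ndufv1, which binds NADH and the flavin, differed by 0.86, Ndufv2 by 0.73 and Ndufs7 by 0.70, each with separate groups. Ndufs8, another iron-sulfur subunit, gave 9.33, 8.97 and 9.06 against 9.00, 9.22 and 10.33. Its groups overlapped: the difference was 0.40 (SE 0.34, adjusted p = 0.603) and -0.01 without induced replicate 3.

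Among the accessory subunits of complex I, Ndufb3 of the membrane arm gave 9.72, 9.34 and 9.21 in control and 10.07, 9.94 and 11.25 in induced cultures. The groups were apart, with a difference of 1.00 (SE 0.36, adjusted p = 0.232), and a second feature gave 1.03. Ndufc1, a small membrane subunit, differed by 0.91 (SE 0.32, adjusted p = 0.219). At the other end stood Ndufs6 and Ndufa12, which help build the NADH-oxidising arm. Ndufs6 gave 6.48, 6.46 and 6.49 against 6.56, 6.51 and 6.90, a difference of 0.18 with the groups barely apart. Ndufa12 gave 9.80, 9.95 and 9.77 against 9.64, 9.83 and 10.85, so induced replicates 1 and 2 lay within or below the controls. Its difference of 0.27 became -0.10 without induced replicate 3.

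Complex II is succinate dehydrogenase, an enzyme of both the citric acid cycle and the chain, and all of its 4 subunits are nuclear. Each of the 4 had separate groups, and the median difference was 0.95 (0.58 without induced replicate 3). Sdha, the flavin subunit that oxidises succinate, gave 9.97, 9.61 and 9.63 in control and 10.32, 10.39 and 11.68 in induced cultures. The lowest induced array was above the highest control array, and the difference was 1.06 (SE 0.37, adjusted p = 0.217). Sdhd, a membrane anchor, gave 8.89, 8.76 and 8.48 against 9.30, 9.46 and 10.49. This is a difference of 1.04 (SE 0.32, adjusted p = 0.179), again with separate groups. Sdhb, the iron-sulfur subunit, differed by 0.86 (SE 0.37) and Sdhc, the second anchor, by 0.84 (SE 0.27).

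The 3 assembly factors of complex II also had separate groups. Sdhaf1, which helps load iron-sulfur clusters into Sdhb, gave 8.22, 7.74 and 7.85 in control and 8.72, 8.78 and 9.46 in induced cultures. Its difference of 1.05 (SE 0.24, adjusted p = 0.106) had the smallest p of all 112 genes, and induced replicates 1 and 2 alone lay 0.81 above the control mean. Sdhaf2, needed to attach the flavin to Sdha, gave 9.88, 9.78 and 9.73 against 10.51, 10.41 and 11.62. The groups were apart by a wide margin, with a difference of 1.05 (SE 0.32, adjusted p = 0.176). Without induced replicate 3 it was 0.66 (SE 0.12, adjusted p = 0.039). Sdhaf3, a further factor for Sdhb, differed by 0.43 (SE 0.18).

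Complex III, the step between coenzyme Q and cytochrome c, held 8 subunits, all with estimates above 0. Their median was 0.91 (0.46 without induced replicate 3), and the groups were separate in 6. Cyc1, its haem-bearing subunit that passes electrons to cytochrome c, gave 9.47, 9.59 and 9.41 in control and 10.03, 9.95 and 11.62 in induced cultures. All induced arrays were above all controls, with a difference of 1.04 (SE 0.43, adjusted p = 0.282). Uqcrc2, a structural core protein, gave 9.93, 9.55 and 9.47 against 10.27, 10.38 and 11.34, a difference of 1.01 (SE 0.30, adjusted p = 0.170). Uqcrfs1, the Rieske iron-sulfur protein, differed by 0.99 (SE 0.35, adjusted p = 0.226). Uqcrb had the largest estimate of the complex, 1.15, but its control values ran from 4.01 to 5.75 and the groups overlapped (SE 0.56, adjusted p = 0.351). The lowest were Uqcrh, the hinge protein, at 0.65 and Uqcr11 at 0.59. Cycs, the mobile carrier cytochrome c, gave 9.39, 9.71 and 9.30 against 9.82, 10.14 and 11.18. The groups were apart by a narrow gap between control replicate 2 and induced replicate 1, and the difference was 0.91 (SE 0.35, adjusted p = 0.248).

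Complex IV, cytochrome c oxidase, held 11 constitutive nuclear subunits, all above 0 in estimate and 9 with separate groups, with a median of 0.68 (0.30 without induced replicate 3). Cox4i1, the common form of a regulatory subunit, gave 9.82, 9.36 and 9.40 in control and 10.12, 10.31 and 10.99 in induced cultures. Here induced replicates 1 and 2 also stood well above control replicates 2 and 3, and the difference was 0.95 (SE 0.25, adjusted p = 0.142). Cox5b differed by 0.93 (SE 0.33), Cox6c by 0.81 (SE 0.31) and Cox8a by 0.75 (SE 0.27), with adjusted p from 0.232 to 0.258. Ndufa4, named for complex I but counted here with complex IV, differed by 0.56 (SE 0.23). Cox6b1 and Cox6a1 were lower at 0.46 and 0.44. Cox7a2l, which ties complex III to complex IV in supercomplexes, had the smallest estimate: 9.49, 9.34 and 9.48 against 9.55, 9.59 and 9.65. Its groups were apart by a narrow gap, and induced replicate 3 was level with the other induced arrays, for a difference of 0.16 (SE 0.10, adjusted p = 0.472).

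The 7 tissue-restricted isoforms of complex IV had a median of -0.03 (0.05 without induced replicate 3). All induced arrays lay above all controls in 2 of them, Cox8b and Cox6a2, and below in 2, Cox6b2 and Cox8c. At or below the median level of all genes were 5 of the 7, and whether the isoforms differ from the subunits was not tested. Cox8b, the form of striated muscle and brown fat, gave 4.75, 4.78 and 4.99 in control and 5.05, 5.15 and 8.00 in induced cultures. It was thus below the array medians of 5.64 to 5.73 on 5 arrays and high on induced replicate 3 alone. Its difference of 1.23 (SE 0.76, adjusted p = 0.462) was 0.26 without that array. Cox6a2, the muscle counterpart of Cox6a1, gave 6.04, 6.24 and 6.71 against 6.72, 6.81 and 7.20, a difference of 0.58 (SE 0.21, adjusted p = 0.243). Cox6b2, mainly a testis form, gave 6.00, 5.98 and 6.00 against 5.51, 5.59 and 5.70, so all induced arrays were below all controls by a small step (-0.39, SE 0.10, adjusted p = 0.138). Cox4i2 and Ndufa4l2, both known from hypoxic tissue, differed by -0.14 (SE 0.18) and -0.03 (SE 0.19), with overlapping groups. RMA gives no detection call, so whether the dimmest of these were expressed at all was not tested.

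Complex V, the ATP synthase, held 13 subunits, of which 12 had estimates above 0 and 8 separate groups. Their median was 0.57 (0.31 without induced replicate 3). Atp5f1b, the catalytic beta subunit, gave 11.50, 11.38 and 11.37 in control and 11.66, 11.61 and 12.47 in induced cultures. The groups were narrowly apart, with a difference of 0.50 (SE 0.24, adjusted p = 0.343). Atp5f1a, the alpha subunit, differed by 0.60 (SE 0.22, adjusted p = 0.241). The ring that turns with the protons is encoded by several genes for the same mature protein. Of these, Atp5mc3 gave 9.95, 9.84 and 9.50 against 10.43, 10.51 and 11.57, with clearly separate groups and a difference of 1.07 (SE 0.32, adjusted p = 0.172). Atp5mc1, another gene of the ring, differed by 0.17 (SE 0.12, adjusted p = 0.543), with overlapping groups. Atp5mg and Atp5me, membrane subunits at the dimer face, differed by 0.80 and 0.75, and Atp5pb of the peripheral stalk by 0.74.

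The exceptions in complex V were Atp5pd and the inhibitor. Atp5pd, a peripheral stalk subunit, gave 7.24, 6.92 and 6.86 in control and 7.07, 7.06 and 6.70 in induced cultures. The groups overlapped, induced replicate 3 was the lowest of all 6 arrays, and the difference was -0.07 (SE 0.16, adjusted p = 0.879). It was the sole subunit of 69 with a negative estimate, and it turned to 0.05 without induced replicate 3. Atp5pd rested on 1 feature with a mean of 6.98, where the median level of the complex V subunits was 9.62. Where the probes of that feature lie was not checked. Atp5if1, which blocks the synthase from running backwards, gave 10.28, 9.74 and 9.77 against 9.70, 9.85 and 9.29. Control replicate 1 was highest and induced replicate 3 lowest, and the groups overlapped (-0.32, SE 0.21, adjusted p = 0.496). Without induced replicate 3 the difference was -0.16 (SE 0.19).

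**Figure D2:**
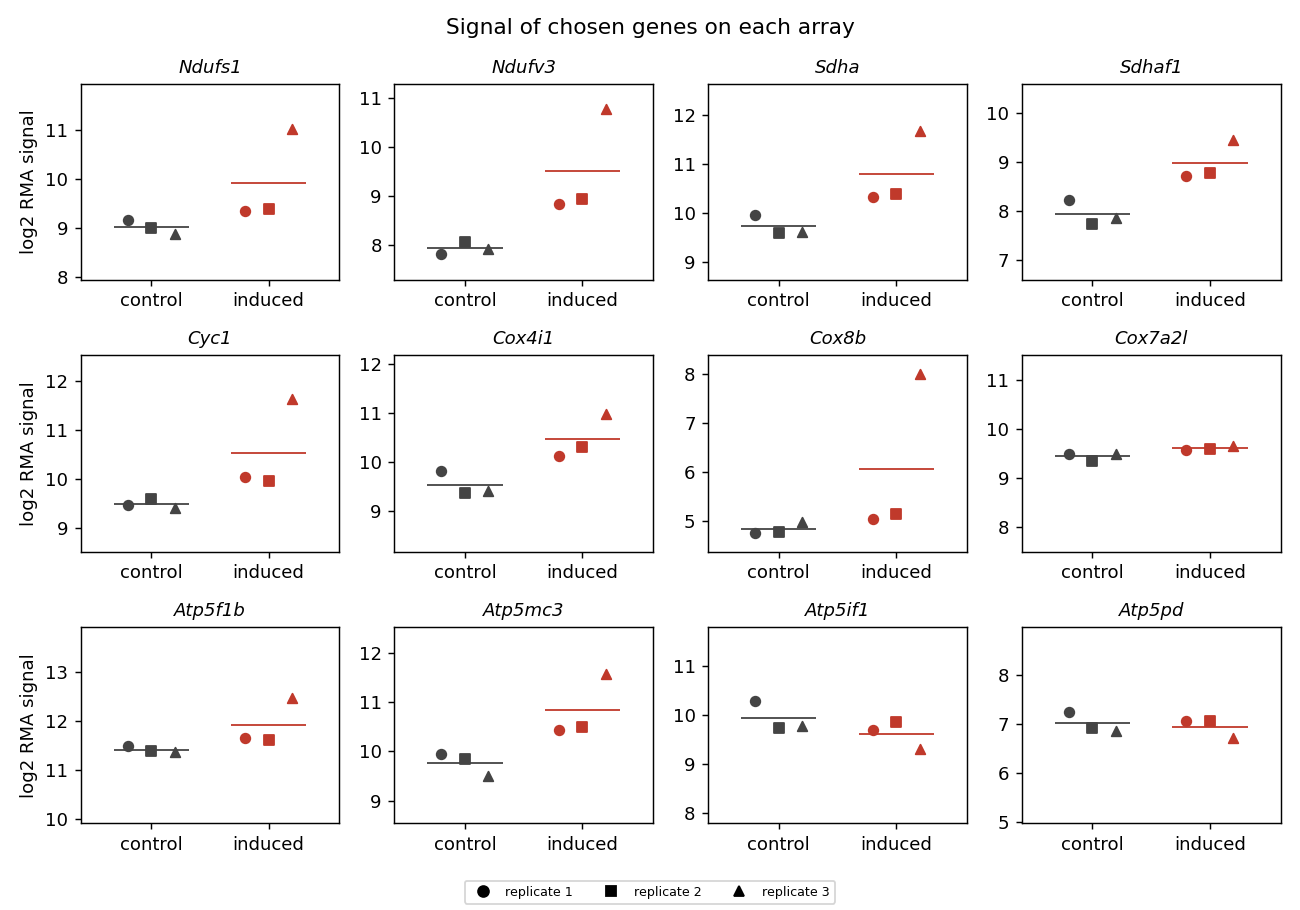
Log2 RMA signal (y axis, each panel spanning the same number of log2 units) of 12 genes on the 3 control (grey) and 3 induced (red) arrays, with the replicate number as the shape and the group mean as a line. Induced replicate 3 is the highest point for every gene shown except Atp5if1 and Atp5pd, where it is the lowest, and Cox7a2l lies nearly level at 9.34 to 9.65.

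The 18 assembly factors, which build the complexes without staying in them, had a median difference of 0.42, and 17 were above 0. With induced replicate 3 left out the median was 0.15, and 15 were above 0. The groups were separate in 7 of the 18 (38.9%, against 12.0% of all genes with the induced arrays above). Their median was 0.39 for the 8 of complex I and 0.30 for the 7 of complex IV, beside 1.05 for the 3 of complex II, and without induced replicate 3 it was 0.11, 0.12 and 0.66. Cox17, the copper chaperone of complex IV, gave 8.25, 8.36 and 8.04 in control and 8.49, 8.32 and 9.92 in induced cultures. The groups overlapped, since induced replicate 2 was within the controls (0.69, SE 0.41, adjusted p = 0.448). Cox11, also needed for copper insertion, differed by -0.06 (SE 0.11) and Ndufaf2, a factor for late complex I assembly, by 0.09 (SE 0.13).

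Over the 17 genes classed as copies and pseudogenes the median difference was 0.05, 10 were above 0, 0 had all induced arrays above all controls, and estimates ran from -0.36 to 0.52. Their median without induced replicate 3 was -0.05. Of the 17, 11 lay at or below the median level of all genes and 6 above it. Among all 20 of the 112 genes at or below that level the median difference was 0.07, against 0.61 for the 92 above it, but those 20 are mainly the 11 copies and 5 tissue-restricted isoforms. The array cannot separate a copy from its parent where probes match both. Where a gene had more than 1 feature, the differences were 0.57 and 0.57 for Atp5mk, 0.91 and 1.01 for Cycs and 1.00 and 1.03 for Ndufb3, but 1.58 and 1.01 for Ndufv3 and 0.46 and 0.23 for Cox6b1, whose second feature was dim. Cox5a gave 0.78 and 0.82, with a further feature that repeated the first on every array.

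The mean level of the 69 constitutive genes varied more among the induced arrays (standard deviation 0.59) than among the controls (0.13). The group means differed by 0.68. Averaged over the 69 constitutive genes, the control arrays read 9.24, 9.04 and 9.00, and the induced arrays 9.38, 9.49 and 10.46. Induced replicates 1 and 2 thus stood 0.29 and 0.40 above the control mean, and induced replicate 3 stood 1.37 above it. The latter array was the highest of the 6 for 68 of the 69, and for 95 of all 112 genes (84.8%), against 26.0% of all genes. It was at least 2-fold above the mean of the other induced arrays for 46 of 112 (41.1%), against 4.26%. Induced replicates 1 and 2 were nevertheless both above all controls for 60 of 112 (53.6%), against 17.5%. Among the controls, replicate 1 was the highest for 74 of 112 (66.1%), against 37.1% of all genes and 46.2% of genes above the median level. Over the constitutive subunits it was the highest control for 26 of 32 in complex I, 4 of 4 in II and 4 of 8 in III. The counts were 8 of 11 in complex IV and 12 of 13 in V, and it was not the highest control for Cycs.

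**Figure D3:**
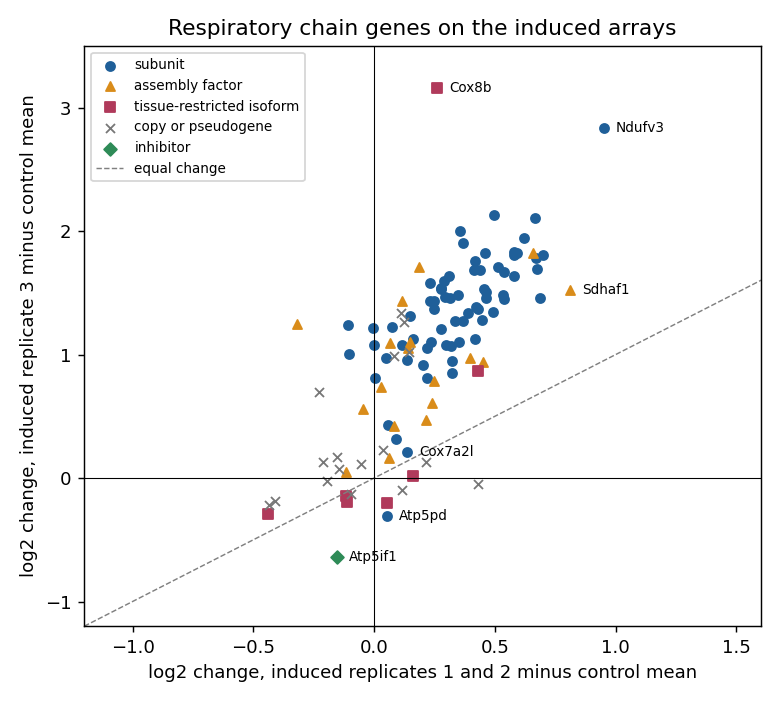
Each point is 1 of the 112 genes, with the mean of induced replicates 1 and 2 minus the control mean on the x axis and induced replicate 3 minus the control mean on the y axis, both in log2 units; the dashed line marks equal values. Subunits other than Atp5pd lie above the line, with medians of 0.34 on the x axis and 1.43 on the y axis.

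Leaving out arrays changed the number of genes called. With control replicate 1 and induced replicate 3 both left out, a setting chosen after seeing the data, 11 of the 112 were called higher (9.82%, against 3.36% of all genes). These were Atp5mc3, Cox4i1, Ndufa9, Ndufb3, Ndufc1, Ndufs3, Ndufv3, Sdha, Sdhaf1, Sdhaf2 and Uqcrc2. Without both replicate 3 arrays 1 was called, Ndufv3 (2.29% of all genes were called higher). With array weights, which gave induced replicate 3 a weight of 0.27, Cox4i1 and Sdhaf1 were called higher (2.61% of all genes were) and Cox6b2 fell.

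Most lists of genes that work beside the complexes also had medians above 0, and most of these genes were not called either. The background for the counts in these lists and in the marker lists is the share over all genes. At an unadjusted p under 0.05 that was 8.13% higher and 9.51% lower. The fit called 0.479% of all genes higher, or 2.00% without induced replicate 3. Of the enzymes that make coenzyme Q, 11 of 12 measured had estimates above 0 (median 0.42, or 0.41 without induced replicate 3). The fit called 0 of them, with 6 at an unadjusted p under 0.05, and it called 1 higher without induced replicate 3. Coq8a, a kinase-like protein of that pathway, gave 6.62, 5.61 and 5.16 in control and 7.86, 7.66 and 8.84 in induced cultures, with separate groups and a difference of 2.32 (SE 0.45, adjusted p = 0.084). Coq5, a methyltransferase of the pathway, differed by 1.34 (SE 0.38, adjusted p = 0.161, or 0.0195 without induced replicate 3). Among 7 other enzymes that feed electrons to coenzyme Q, 1 was called: Prodh, proline dehydrogenase. Prodh gave 6.57, 5.92 and 5.77 against 9.61, 9.27 and 9.57 and rose by 3.40 (SE 0.23, adjusted p = 0.00692). Its induced arrays were nearly level with each other, and all lay far above the controls. Etfa, of the electron transfer flavoprotein of fatty acid oxidation, differed by 1.48 (SE 0.36, adjusted p = 0.118).

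Of 26 further assembly factors, 22 were above 0 (median 0.42, or 0.15 with 17 above 0 without induced replicate 3) and 0 were called (4 higher and 1 lower at an unadjusted p under 0.05), with Coa5 at 1.05 and Tmem70, a factor for the ATP synthase, at 0.93. Mitochondrial ribosomal proteins, which translate the mitochondrially encoded subunits, were above 0 in 65 of 69 (median 0.35), and cytosolic ribosomal proteins in 5 of 56 (median -0.25), with 0 called in either list. At an unadjusted p under 0.05, 13 of the mitochondrial ones were higher and 9 of the cytosolic ones lower. Without induced replicate 3 the medians were 0.14 and -0.08. Protein import factors and chaperones had a median of 0.37 over 20 genes, led by Timm10 at 0.83 and Hspd1 at 0.82, and supercomplex and cristae proteins 0.38 over 12, led by Higd2a at 0.84 and Opa1 at 0.74. These medians were 0.13 and 0.17 without induced replicate 3. In both lists 0 were called, with 4 import genes and 2 cristae genes higher and 1 import gene lower at an unadjusted p under 0.05. The mitochondrially encoded subunits were represented by COX1, COX2 and COX3, which differed by 0.07, 0.06 and 0.02 with overlapping groups. COX1 ran from 13.16 to 13.35, COX2 from 12.43 to 12.81 and COX3 from 13.27 to 13.39, where the highest value in the table was 13.55.

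**Figure D4:**
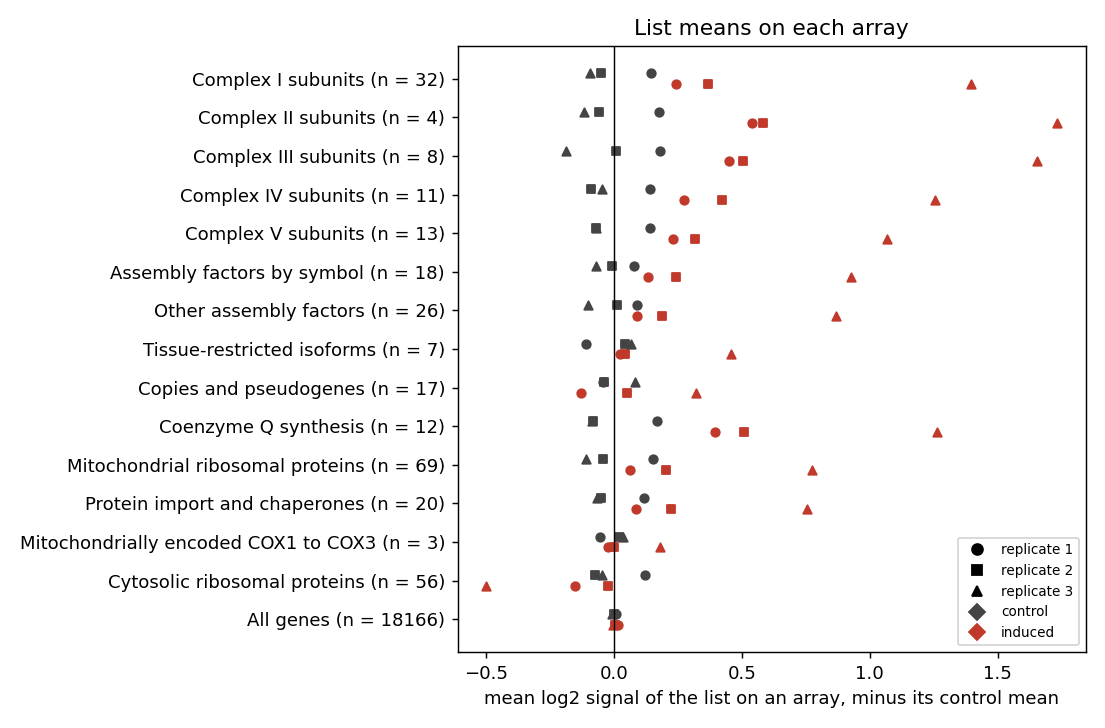
Mean log2 signal of each gene list on each array minus its control mean (x axis, log2 units), for control (grey) and induced (red) arrays with the replicate number as the shape. Induced replicate 3 is the rightmost point for every list from complex I subunits to COX1 to COX3, is the leftmost at -0.50 for cytosolic ribosomal proteins, and lies level with the other arrays for all genes.

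Coactivators and transcription factors of respiratory genes gave a median of 0.17 over 15 genes (0.065 without induced replicate 3), with 0 called and, at an unadjusted p under 0.05, 3 higher and 2 lower. Ppargc1b gave 5.49, 5.30 and 5.01 in control and 6.05, 5.92 and 8.23 in induced cultures, and Ppargc1a gave 5.97, 3.92 and 4.08 against 5.13, 4.73 and 7.73. Both coactivators were highest on induced replicate 3, and the groups overlapped for Ppargc1a (1.21, SE 0.89, adjusted p = 0.546) but not for Ppargc1b (1.46, SE 0.60, adjusted p = 0.277). Nrf1 differed by -0.22 (SE 0.12), Gabpa by -0.32 (SE 0.13), Esrra by 0.29 (SE 0.27) and Tfam, the mitochondrial DNA packaging factor, by 0.35 (SE 0.22), with adjusted p from 0.273 to 0.644. Among carriers for ATP export and uncoupling, 0 of 10 were called (median 0.20, or 0.08 without induced replicate 3), with 1 higher at an unadjusted p under 0.05. Ucp3, an uncoupling protein relative, gave 5.68, 5.66 and 5.70 against 6.32, 6.31 and 8.62, with induced replicate 3 again far above the rest. Without that array Ucp3 was called higher (adjusted p = 0.0337). Vdac1, the main pore of the outer membrane, differed by 0.43 (SE 0.15, adjusted p = 0.211).

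Markers of the cells present are given beside the respiratory genes, and their part in the result was not tested. Mature adipocyte markers were above 0 in 19 of 19 measured, 11 of them called (median 3.57), with Rbp4, a retinol carrier, up by 4.77 and Thrsp, a regulator of lipid synthesis, up by 6.04. Their mean signal was 8.55, 7.22 and 7.20 in controls, against 11.05, 11.03 and 11.96 with induction. Control replicate 1 was thus the highest control and induced replicate 3 the highest induced array, as for the subunits. The sizes differed: the adipocyte markers stood 3.39, 3.37 and 4.30 above their control mean on the induced arrays. The constitutive subunits stood 0.29, 0.40 and 1.37 above theirs. Mesenchymal stromal markers gave 9.15, 9.08 and 9.01 against 8.75, 8.81 and 7.72, lowest on induced replicate 3, with 0 of 10 called and 4 lower at an unadjusted p under 0.05. Control replicate 1 was the highest control for the mean of these markers too, and for that of cytosolic ribosomal proteins (10.29, 10.09 and 10.12 in controls). That order of the controls was thus not particular to adipocyte markers and subunits.

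Brown and beige adipocyte markers had a median of -0.01 over 10 genes, with 5 above 0 and 5 below, the lowest at -0.97. At an unadjusted p under 0.05, 1 was higher and 1 lower, and after adjustment 1 was called. That gene was Cidea, a lipid droplet protein that white adipocytes can also express, up by 4.62 (SE 0.48, adjusted p = 0.0189). Cpt1b, the muscle form of the enzyme for fatty acid entry into mitochondria, gave 7.25, 7.02 and 6.69 against 7.75, 7.53 and 10.15. It was again highest on induced replicate 3 (1.49, SE 0.67, adjusted p = 0.314). Ucp1, the uncoupling protein that defines brown fat, gave 4.13, 4.29 and 4.30 against 4.34, 4.35 and 4.89 and stayed below the array medians on all 6 arrays. Striated muscle markers averaged 5.23 to 5.53 on all arrays and endothelial markers 5.35 to 5.45, with 0 called and 0 at an unadjusted p under 0.05 in both. Macrophage and leukocyte markers averaged 6.69, 7.09 and 5.47 in control and 7.73, 7.23 and 6.00 in induced cultures, highest on induced replicate 1. The fit called 0 of 16, with 2 higher at an unadjusted p under 0.05 and a median of 0.53. Without induced replicate 3 the median was 0.80, and 4 of 16 were called higher, against 2.00% of all genes. Among the 4 was C1qb (adjusted p = 0.00123), at 5.09, 4.98 and 4.96 in control and 8.17, 7.60 and 4.92 in induced cultures. Hypoxia-responsive genes had a median of 0.08 over 11, with 0 called and 2 in each direction at an unadjusted p under 0.05. Without induced replicate 3, 1 of the 11 was called higher. RMA values have no 0, so a marker near the bottom of the scale is dim rather than shown to be absent.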

How the data were processed

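The authors deposited log2 values, and RMA is the tool that the submitters' processing notes name, with its version and the genome build not given in the sources used here. The log2 scale was read from the values (highest 13.55). RMA brings the arrays to a common distribution, which hides any change in total RNA per cell, and it compresses low signals. The precision is limited by the number of arrays. Of 36685 features, 18511 had 1 symbol in the platform annotation, 575 several and 17599 none. Each of 18166 genes was represented by its brightest feature, by the mean of all 6 arrays. Single-symbol features numbered 119 for the 112 genes, and 10 features naming several genes were set aside. Of the single-symbol features, 18394 matched the GRCr8 gene table, which was used for names and promoters only.

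The groups were tested in limma 3.58.1 under R 4.3.3 (a linear model with eBayes moderation, two-sided, 4 residual and 2.65 prior degrees of freedom), with Benjamini-Hochberg adjustment over all genes and a threshold of 0.05. The fit was tested on simulated data. An exact permutation test of 3 against 3 arrays cannot go below 0.1 and is not given for single genes. Gene lists are described by counts and medians, without a list test. The genes, lists, tests and naming rule were chosen with earlier results of these data known. The naming rule took, in complexes I, III, IV and V, the 4 largest and 2 lowest estimates among subunits and isoforms. It added complex II, Cyc1, Cycs, the complex I and ATP synthase cores, known isoforms, the inhibitor, the 3 largest and 2 lowest assembly factors, and the 2 largest changes of each other list. Members outside it, and Ucp1, Nrf1, Gabpa, Esrra and Tfam, were named with their values in view. Alternatives left out arrays, added a replicate block or array weights, and changed the prior, the filter on low values, the feature choice and the centring.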

Additional observations from a re-analysis of the deposited data

How the results depend on the processing

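The median difference of the 112 genes stayed above 0 under every alternative tried, from 0.24 to 0.75 with 1 array left out. The complex medians then ran from 0.24 to 0.76 (I), 0.62 to 1.18 (II), 0.42 to 0.99 (III), 0.18 to 0.67 (IV) and 0.15 to 0.55 (V). Complex II stood at 0.56 without both replicate 3 arrays, and complex V at 0.16 without control replicate 1 and induced replicate 3, the setting chosen after seeing the data. The number of the 112 called higher was 0 to 2 with 1 array left out (2 without induced replicate 3), 1 without both replicate 3 arrays, 2 with array weights and 11 in the added setting, and 0 otherwise. Over all genes, 136 were called, 2 to 557 with 1 array left out, 740 without both replicate 3 arrays, 929 with array weights, 978 in the added setting and 69 over all features.

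Some small differences changed sign. Ndufa12 ran from -0.10 to 0.50 with 1 array left out, and was -0.14 without both replicate 3 arrays, -0.056 with array weights and -0.13 in the added setting. Ndufs8 ran from -0.0054 to 0.66 and was -0.036 without both replicate 3 arrays. Atp5pd ran from -0.14 to 0.05, and was 0.060 with array weights and 0.17 in the added setting, where Atp5if1 was 0.019 (-0.43 to -0.14 with 1 array left out). Cox4i2 ran from -0.31 to 0.0050 and Ndufa4l2 from -0.16 to 0.13. The cause was not tested for any of these.

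The labels do not say whether the replicate numbers pair the samples. Deviations of same-numbered arrays from their group means correlated at 0.02, 0.12 and 0.15, and not every array correlated best with its own number. With 3 arrays per group these deviations depend on each other, so the correlations cannot decide whether the numbers mark pairs. With the replicate number as a block, 12 of all genes and 0 of the 112 were called.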

Other observations

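Some features of the table name several genes at once, and 10 of them hold a respiratory chain or ATP synthase symbol. They were kept out of all counts because their signal cannot be given to 1 gene. Of these 10, 9 had estimates above 0, with a median log2 difference of 0.49 and a range of -0.04 to 1.07. The limma fit called 0 of the 10 (smallest adjusted p = 0.179), and 5 had an unadjusted p under 0.05. Induced replicate 3 was the highest array for 9 of the 10, as it was for 68 of the 69 constitutive genes with a feature of their own.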
